A study of Mus musculus with 6 samples.

Results

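The Aurora kinase genes and their closest partners were examined in testes lacking Trf2. The set comprised 8 of the 26743 genes in the deposited count table, chosen by name as the 3 Aurora kinases Aurka, Aurkb and Aurkc, the other subunits of the chromosomal passenger complex Incenp, Birc5 and Cdca8, and the Aurora A activators Tpx2 and Bora. Of these, 7 were found under their own name and Bora under its older symbol 6720463M24Rik. Whole testes of 3 WT mice and 3 Trf2-/- mice, all at post natal day 21, were profiled by RNA-seq. Trf2 is listed in the table as Tbpl1, and the study describes the mice of each genotype as independent biological replicates. The study's methods give a 129/SvPas background in their account of the mice carrying tagged Trf2. The structure of the inactivated allele is not given in the sources used here. Because RNA came from the whole organ, fewer cells of a type and less RNA per cell cannot be told apart in any result that follows.

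Aurora kinases are serine/threonine kinases that drive chromosome segregation. Aurora A acts at centrosomes and spindle poles, where Tpx2 binds and activates it, and Bora is the cofactor through which it activates the kinase Plk1. Aurora B is the catalytic subunit of the chromosomal passenger complex, in which Incenp is the scaffold and survivin (Birc5) and borealin (Cdca8) bring the complex to centromeres, where it releases faulty attachments of microtubules before the complex moves to the midzone. Aurora C is the member found mainly in germ cells, can take the place of Aurora B in the complex, and is known for its part in the meiotic divisions of spermatocytes and oocytes.

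Of these genes, Aurkc has a near-identical copy elsewhere in the genome, and its sequence is shown here because it bears on what an Aurkc read can be assigned to. In the NCBIM37 (mm9) annotation Aurkc (ENSMUSG00000070837) lies on the plus strand of chromosome 7 from 6948154 to 6955656. It has 1 transcript, annotated as protein-coding, of 7 exons and 948 bases. A pseudogene, Gm12463, lies on the minus strand of chromosome 4 from 44765149 to 44765997. Over 841 aligned bases of the Aurkc transcript the pseudogene differed at 4, an identity of 99.5%, and the longest run without a difference was 716 bases. The reads were 50 bases long. A stretch of 90 bases near the end of the Aurkc transcript holds 3 of the 4 differing bases, shown in capitals. It is written 5′ to 3′ along the transcript. It lies at chr7:6955562-6955651 on the plus strand for Aurkc and chr4:44765172-44765261 on the minus strand for Gm12463, both in NCBIM37.
Aurkc: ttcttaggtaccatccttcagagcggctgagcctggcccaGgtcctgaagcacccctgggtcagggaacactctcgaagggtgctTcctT
Gm12463: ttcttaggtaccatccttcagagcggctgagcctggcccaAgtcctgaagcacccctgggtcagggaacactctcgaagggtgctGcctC

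Cut into overlapping words of 50 bases, the Aurkc transcript gave 899 words, of which 716 (79.6%) were also found at another place in the genome and 183 were found only at Aurkc. Shorter matches lay at 25 other places on chromosome 7, the longest of 102 bases, with no gene annotated at them. None of the words of Aurka, Aurkb, Incenp or Bora was found elsewhere. For Birc5 the share was 5.69%, for Tpx2 0.839% and for Cdca8 0.0457%.

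The longest sequences that the 3 kinase genes share with each other are shorter than a 50-base read. These shared runs are shown for that reason, and they lie in exons of the kinases. That of Aurkb and Aurkc, 25 bases long, is at chr11:68862246-68862270 and chr7:6952703-6952727, both on the plus strand. That of Aurka and Aurkb is 20 bases long, and that of Aurka and Aurkc 12 bases long.
Aurkb and Aurkc: tgtcagatgccctgacctactgcca
Aurka and Aurkb: ctgcccccagagatgattga
Aurka and Aurkc: gtggagatccag

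The other members have models with several exons in NCBIM37. Aurka (ENSMUSG00000027496) lies on the minus strand of chromosome 2 from 172181690 to 172196035, with 9 exons. Aurkb (ENSMUSG00000020897) lies on the plus strand of chromosome 11 from 68859149 to 68865166, also with 9 exons. Incenp is on chromosome 19 from 9946787 to 9974023, Birc5 on chromosome 11 from 117710565 to 117717069, and Cdca8 on chromosome 4 from 124595709 to 124616555. Tpx2 is on chromosome 2 from 152673700 to 152721057 and Bora on chromosome 14 from 99445646 to 99473756. Only Cdca8 shared exonic bases with another gene. The non-coding RNA gene 9930104L06Rik overlaps 232 of them (4.48%) on the opposite strand, and its level was 32.9 ± 2.15 CPM in WT and 34.0 ± 0.666 CPM in Trf2-/- testis (SD, n = 3 mice each), with a log2 fold change of 0.04 (SE 0.07, edgeR adjusted p = 0.634). CPM here are counts scaled to the TMM-normalized size of each library, and each adjusted p from edgeR is that of its quasi-likelihood test. SE stands for an approximate standard error of such a change. It is the size of the change divided by the square root of the F statistic of that test.

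The depth was 21582123 to 29859347 counts on genes per WT mouse and 15187062 to 24530489 per Trf2-/- mouse, the third Trf2-/- mouse being the shallowest. Tbpl1 itself fell to 20.7% of WT, from 295 ± 12.5 CPM in WT to 61.0 ± 4.60 CPM (SD over 3 mice), with a log2 fold change of -2.27 (SE 0.06, edgeR adjusted p = 1.18e-06). Markers of every germ cell stage on the lists were detected, as were those of Sertoli, Leydig and peritubular cells. Of the 9 round spermatid markers, 8 were tested and 7 fell, 6 of them by at least 2-fold. Their summed level, most of it from Acrbp (54.4% of WT), was 145 to 155 CPM in WT and 60.9 to 93.7 CPM in Trf2-/- testis. Acrv1, Spaca7, Catsper3 and Lyzl4 had a count of 0 in at least 1 Trf2-/- mouse, which allows up to 3 counts. The spermatocyte list moved both ways, with 4 of 9 genes lower and 3 higher, and its summed level was 4080 to 4406 CPM in WT and 4019 to 4168 CPM in Trf2-/- testis. That near-level sum held Ccna1, the meiotic cyclin A1, which fell to 32.2% of WT (log2 fold change -1.63). Piwil1 (84.1% of WT), Hspa2 (88.8%) and Mybl1 (89.3%) also fell, whereas Sycp1 (123%), Sycp3 (118%) and Hormad1 (113%) rose. These genes are named after their values were seen. Of the spermatogonial markers 1 of 7 (14.3%) rose, of the Sertoli markers 3 of 6 (50%), and of the peritubular markers 1 of 5 (20%). Of the Leydig markers 0 of 6 passed in edgeR or DESeq2, and 0 did at an unadjusted p under 0.05. For comparison, 20.2% of all tested genes were lower and 11.2% higher at an adjusted p under 0.05 in edgeR. Those also at least 2-fold lower were 4.3%. Macrophage markers rose in 5 of 7 cases, with a summed level of 176 to 199 CPM in WT and 201 to 397 CPM in Trf2-/- testis, highest in the first Trf2-/- mouse. T cell markers were barely detected, with 1 of 5 above the count filter, and Cd3g and Cd8a were at 0 in all WT mice.

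Trf2-/- testes contained less RNA of each Aurora kinase gene. Aurkc fell to 39.6% of WT, Aurkb to 64.8% and Aurka to 65.7%, whereas the other 5 genes stood at 83.5 to 89.4% of WT. In all, 7 of the 8 genes were lower at an adjusted p under 0.05, 0 were higher in edgeR or in the Wald test of DESeq2, also at an unadjusted p under 0.05, and Incenp did not pass. Among all 16924 tested genes, 20.2% were lower and 11.2% higher by the same rule. Only Aurkc was also at least 2-fold lower, as were 4.3% of all genes. All 8 genes passed the filter on low counts, and in each of them every Trf2-/- mouse lay below every WT mouse, a pattern seen in 26.8% of all genes. Their median log2 fold change was -0.25, and that of all tested genes 0.04. Scaling by library size alone, which moved the median of all genes by 0.09, left 4 of the 8 past the test.

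**Figure D1:**
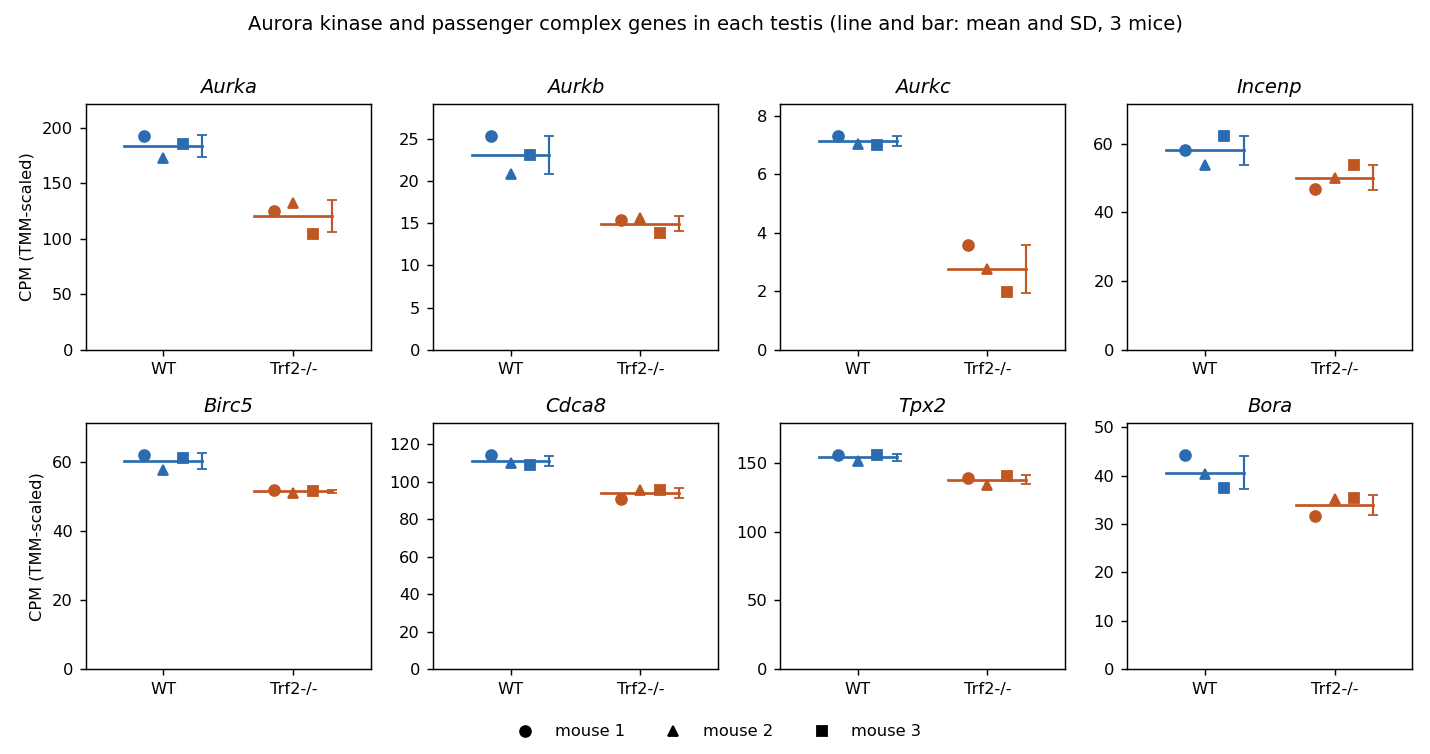
Level of each gene in each testis, in CPM on an axis that starts at 0, with WT mice on the left and Trf2-/- mice on the right of each panel. Points are mice, and the line and bar are the mean and SD of 3 mice. The difference between genotypes is widest relative to the level for Aurkc, at 7.00 to 7.32 CPM in WT and 1.96 to 3.57 CPM in Trf2-/-. It is smallest for Tpx2, at 89.4% of WT. The gap between the nearest mice is narrowest for Incenp, where the groups nearly touch.

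Aurkc, the meiotic kinase, had the fewest counts of the 8 genes, with 210, 184 and 146 counts in WT mice 1 to 3 and 90, 64 and 31 in Trf2-/- mice 1 to 3. Scaled to depth these were 7.32, 7.05 and 7.00 CPM in WT and 3.57, 2.74 and 1.96 CPM in Trf2-/- testis. The WT mice lay close together, the Trf2-/- mice were spread more widely, and the groups were far apart. The genotypes differed by a log2 fold change of -1.34 (SE 0.19, edgeR adjusted p = 0.00127).

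Counts on the pseudogene Gm12463 were lower in Trf2-/- testis too. In WT mice 1 to 3 it had 53, 56 and 54 counts, and in Trf2-/- mice 1 to 3 it had 26, 18 and 12. The mean was 2.19 ± 0.374 CPM in WT and 0.854 ± 0.154 CPM in Trf2-/- testis (SD, n = 3 mice each), and the log2 fold change was -1.33 (SE 0.23, edgeR adjusted p = 0.00309). Of the 800 words of 50 bases in Gm12463, 490 also occur unbroken in the Aurkc gene, 187 occur only in its spliced transcript and 123 occur in neither. With the counts of the pseudogene added to those of Aurkc, a sum chosen after seeing the data, the log2 fold change was -1.34 and the adjusted p 0.00087. How reads were divided between the copies was not tested.

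Aurkb, the kinase of the passenger complex in dividing cells, stood at 25.4, 20.8 and 23.2 CPM in WT mice 1 to 3 and at 15.4, 15.6 and 13.9 CPM in Trf2-/- mice 1 to 3. The groups did not overlap, and the mutant mice differed among themselves less than the WT mice did. Its log2 fold change was -0.63 (SE 0.09, edgeR adjusted p = 0.0016). Aurka, the spindle pole kinase, had 193, 173 and 185 CPM in WT and 125, 132 and 104 CPM in Trf2-/- testis. Its log2 fold change was -0.61 (SE 0.09, edgeR adjusted p = 0.00122). For all 3 kinases the lowest value was that of the third Trf2-/- mouse, which also had the lowest depth and the lowest summed round spermatid markers, at 40.3% of the WT mean against 57.7% and 62.0% in the other mutant mice. Without that mouse the log2 fold change was still past the test for each kinase, and leaving out any mouse in turn gave -0.69 to -0.51 for Aurka, -0.70 to -0.55 for Aurkb and -1.58 to -1.16 for Aurkc.

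The non-catalytic subunits of the complex stood at 84.5 to 86.2% of WT. Incenp, the scaffold that activates Aurora B or C, had 58.2, 53.8 and 62.4 CPM in WT and 46.7, 50.0 and 53.8 CPM in Trf2-/- testis. The highest mutant mouse lay just under the lowest WT mouse, and the log2 fold change of -0.21 (SE 0.07) did not pass in edgeR's quasi-likelihood test, with an adjusted p of 0.0554. Without the third Trf2-/- mouse it was -0.26 and passed, with an adjusted p of 0.0228 in the same edgeR test. Birc5 (survivin), which binds phosphorylated histone H3 at centromeres, had 62.0, 57.7 and 61.3 CPM in WT and 52.0, 51.2 and 51.7 CPM in Trf2-/- testis. The mutant mice were almost alike and all below WT, and the log2 fold change was -0.22 (SE 0.05, edgeR adjusted p = 0.0119). Cdca8 (borealin), which joins survivin to Incenp, had 114, 110 and 109 CPM in WT and 90.9, 95.6 and 95.7 CPM in Trf2-/- testis. Its log2 fold change was -0.24 (SE 0.05, edgeR adjusted p = 0.00475), and it was the member outside the kinases that stayed past the test in all 12 alternatives.

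The Aurora A activators stood at 89.4% (Tpx2) and 83.5% (Bora) of WT. Tpx2, the spindle assembly factor, had 155, 151 and 155 CPM in WT and 139, 134 and 140 CPM in Trf2-/- testis. The groups were apart, and the log2 fold change was -0.16 (SE 0.04, edgeR adjusted p = 0.0196). Leaving out any 1 WT mouse ended the call, with an adjusted p of 0.0681, 0.0535 and 0.0639 without WT mouse 1, 2 and 3. Bora had 44.2, 40.2 and 37.5 CPM in WT and 31.6, 35.1 and 35.3 CPM in Trf2-/- testis, with a log2 fold change of -0.26 (SE 0.08, edgeR adjusted p = 0.0319). This call was lost without WT mouse 1, WT mouse 2 or Trf2-/- mouse 1, at adjusted p of 0.115, 0.0821 and 0.0868. With library size alone as the scale, Birc5, Tpx2 and Bora did not pass, at adjusted p of 0.0752, 0.238 and 0.116.

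**Figure D2:**
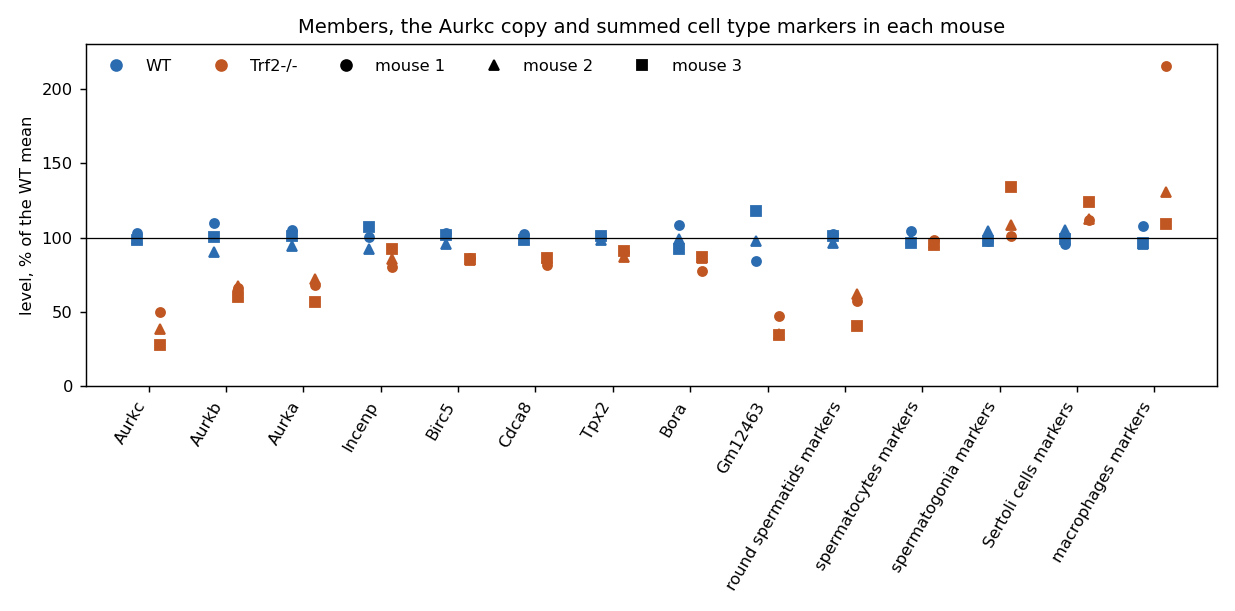
Level of each gene, of the pseudogene Gm12463 and of the summed markers of 5 cell types in each mouse, as a percentage of the WT mean. Points are mice, in WT and Trf2-/- columns. Aurkc lies at 27.5 to 50.1% in the mutant mice and Gm12463 at 34.6 to 47.0%. The summed round spermatid markers, mostly Acrbp, lie at 40.3 to 62.0%. The summed spermatocyte markers lie at 95.2 to 98.7%, although 4 of the 9 genes fell and 3 rose. The sums follow their most abundant genes, so that single markers such as Ccna1 lie far from them.

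The part of these cell type differences in the levels of the 8 genes was not tested. Within the mutant group the kinases and the other genes did not take the same order. The third Trf2-/- mouse was lowest for the 3 kinases, the first was lowest for Incenp, Cdca8 and Bora, and the second was lowest for Birc5 and Tpx2. The first Trf2-/- mouse, in which macrophage markers stood at 215% of the WT mean, was the highest of the mutant mice for Aurkc, at 50.1% of the WT mean.

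Ratios within a mouse compare members free of library scaling. The gene length used sets the level of a ratio but cancels from its difference between genotypes. The log2 ratio of Aurkc to Aurkb, each in counts per kb of gene length, was -0.60, -0.37 and -0.53 in WT and -0.91, -1.32 and -1.63 in Trf2-/- testis. The mean went from -0.50 ± 0.12 to -1.29 ± 0.36 (SD, n = 3 mice each), a difference of -0.78 with no overlap between the genotypes. The log2 ratio of Aurkc to Aurka went from -3.65 ± 0.06 to -4.45 ± 0.31, a difference of -0.80, and that of Aurkb to its scaffold Incenp from -0.76 ± 0.12 to -1.17 ± 0.18, a difference of -0.41. Each of the 3 ratios was lower in 3 of 3 mutant mice than in any WT mouse. Each gave p = 0.1 in a two-sided exact permutation test and 0.1 after Benjamini-Hochberg adjustment over the 3, which is the smallest p that 3 mice against 3 allow.

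**Figure D3:**
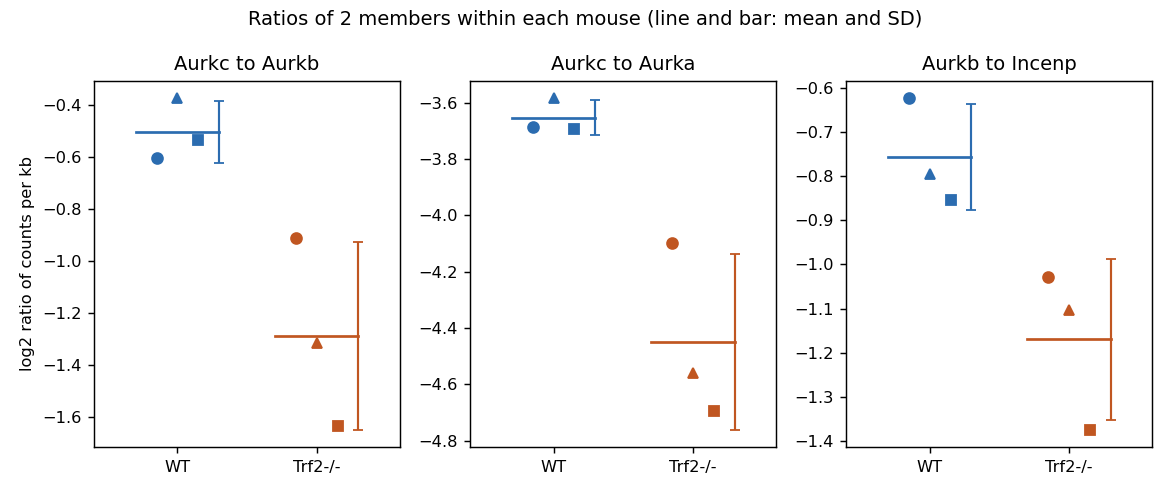
The log2 ratio of counts per kb of gene length between pairs of genes in each mouse, for Aurkc to Aurkb, Aurkc to Aurka and Aurkb to Incenp. Points are mice, and the line and bar are the mean and SD of 3 mice. The genotypes do not overlap in any panel, with a mean difference of -0.78, -0.80 and -0.41.

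Levels could be compared between genes only per length. On the scale of CPM per kb of the gene length in the deposited table, the order in WT testis was Aurka (94.6 ± 5.23), Cdca8 (47.4 ± 1.11), Tpx2 (34.2 ± 0.552), Incenp (18.0 ± 1.32), Birc5 (17.7 ± 0.676), Bora (15.2 ± 1.26), Aurkb (10.7 ± 1.05) and Aurkc (7.51 ± 0.179), each as the mean and SD of 3 mice. In Trf2-/- testis the order was the same, from Aurka at 62.1 ± 7.62 to Aurkb at 6.90 ± 0.424 and Aurkc at 2.91 ± 0.850. In both genotypes Incenp and Birc5 overlapped between mice, and all other neighbours in the order did not. Of the summed per-kb level of the 3 kinases, Aurkc made up 6.50 to 7.01% in WT mice and 3.33 to 5.00% in Trf2-/- mice, on this scale only.

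The place of Aurkc in that order, and its share of the 3 kinases, depended on the length used. When levels were given per 1000 words of 50 bases that occur nowhere else in the genome, Aurkc stood at 38.9 ± 0.928 in WT and 15.1 ± 4.40 in Trf2-/- testis, above Aurkb at 11.8 ± 1.17 and 7.66 ± 0.470 (SD, n = 3 mice each). This second scale is right only if the reads shared with other places were left out of the counts, and the setting used for such reads is not given in the sources used here. For the other genes the scales were close, as with Aurka at 95.3 and Cdca8 at 50.8 CPM per 1000 unique words in WT.

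**Figure D4:**
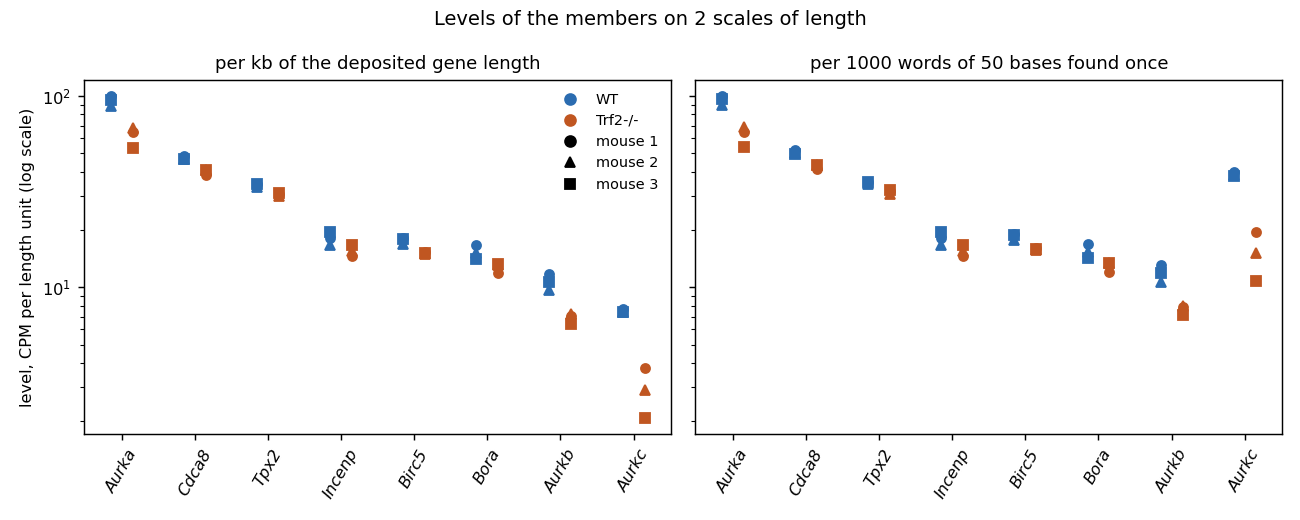
Level of each gene in each mouse on a log axis, in CPM per kb of gene length (left) and in CPM per 1000 unique 50-base words (right), with WT and Trf2-/- mice as points. On the left Aurkc is the lowest gene, at 7.51 in WT. On the right it lies in WT above Aurkb, at 38.9 against 11.8, and also above Tpx2 at 35.2.

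The tested genes whose profile over the 6 mice was nearest to each kinase were found by the root mean square difference of log2 CPM around the gene's own mean. For Aurka these were Elmod3 (0.0144), Rnf19a (0.0175) and Igf2bp3 (0.0204), against a median of 0.384 over all tested genes. For Aurkb they were C730034F03Rik (0.0437), Fam131a (0.0486) and Kctd9 (0.0488), with a median of 0.382 over all genes. For Aurkc they were Gfap (0.0837), Aox4 (0.0899) and Glipr1l1 (0.0945), with a median of 0.767. The neighbours of Aurka had log2 fold changes of -0.64 to -0.59, and those of Aurkc of -1.39 to -1.32. Because the neighbours were picked on the same 6 mice, genotype difference included, fold changes near those of the kinase follow from the selection. This ranking is a description of 6 libraries only.

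Promoter sequence from RefSeq (GRCm38.p6) was found for 4 of the 8 genes, Aurka, Aurkc, Birc5 and Cdca8. The CCAAT box, a binding motif of the factor NF-Y that is common in cell cycle genes, was searched together with 4 other motifs, TGACG and TGACGTCA (the short and full CRE, the motif of CREM), and TTTGAA and TTCGAA (the cell cycle element CHR), on both strands of the 250 bases before the start. TGACGTCA contains TGACG. The 150 bases before the start are shown for each, since they hold all the matches, with CCAAT or its complement ATTGG in capitals. They lie at chr2:172370571-172370720 (minus strand), chr7:6995235-6995384 (plus), chr11:117849087-117849236 (plus) and chr4:124936918-124937067 (minus) in GRCm38.p6, a later build than that of the counts.
Aurka: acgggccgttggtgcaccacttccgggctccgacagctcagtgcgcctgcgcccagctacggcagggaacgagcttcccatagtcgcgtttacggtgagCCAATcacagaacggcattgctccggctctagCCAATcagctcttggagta
Aurkc: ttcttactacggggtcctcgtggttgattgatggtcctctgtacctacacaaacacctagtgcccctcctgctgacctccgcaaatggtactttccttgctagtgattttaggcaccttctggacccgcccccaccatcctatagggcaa
Birc5: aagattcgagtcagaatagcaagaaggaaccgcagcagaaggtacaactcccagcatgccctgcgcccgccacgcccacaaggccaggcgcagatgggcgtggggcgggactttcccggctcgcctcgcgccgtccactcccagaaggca
Cdca8: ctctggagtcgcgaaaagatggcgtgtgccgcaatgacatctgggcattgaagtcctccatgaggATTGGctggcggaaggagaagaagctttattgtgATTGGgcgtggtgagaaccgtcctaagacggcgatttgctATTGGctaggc

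Aurka had CCAAT at -51 and -19 from the start, and Cdca8 had ATTGG at -85, -51 and -11. No match to any of the 5 motifs was found for Aurkc or Birc5 in this window. Across the 27025 promoters of the table, CCAAT was found in 34.5%, TGACG in 17.9%, TTTGAA in 16.3%, TGACGTCA in 1.62% and TTCGAA in 1.34%. These matches are letters only, and binding was not measured here.

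The wider pathway was described with 4 lists of genes. Among 15 partners and regulators of Aurora A, 3 (20%) fell and 3 (20%) rose, against 20.2% and 11.2% of all tested genes. The list median log2 fold change was -0.05. Plk1, the mitotic kinase that Aurora A activates with Bora, fell from 31.3, 26.7 and 34.3 CPM in WT to 18.3, 17.6 and 13.1 CPM in Trf2-/- testis. Its log2 fold change was -0.90 (SE 0.13, edgeR adjusted p = 0.00144), larger in size than those of Tpx2 and Bora. Cep192, a centrosome scaffold, and Tacc3, which Aurora A phosphorylates on the spindle, fell with log2 fold changes of -0.15 and -0.14 and are named after their values were seen. Ckap5, the microtubule polymerase that works with Tacc3, was higher, at 590 ± 27.8 CPM against 488 ± 13.7 CPM in WT (SD, n = 3 mice each), with a log2 fold change of 0.27. Ajuba and Nedd9, both of them scaffold proteins that activate Aurora A, rose with log2 fold changes of 0.32 and 0.67. Without WT mouse 1, 2 or 3 or without Trf2-/- mouse 1, 1 gene of this list was lower in place of 3.

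Among 12 genes that place or activate the passenger complex at centromeres and midzone, 5 (41.7%) fell and 2 (16.7%) rose. The shares over all tested genes were 20.2% and 11.2%, and the list median was -0.05 (log2). Haspin, listed as Gsg2, is the kinase that phosphorylates histone H3 to make the site survivin binds, and is abundant in haploid germ cells. It had 404, 381 and 389 CPM in WT and 212, 234 and 142 CPM in Trf2-/- testis. The third Trf2-/- mouse was again the lowest, and the log2 fold change was -0.99 (SE 0.15, edgeR adjusted p = 0.0016). Sgo2a, a shugoshin that protects centromeric cohesin in meiosis, the checkpoint kinase Ttk, and Rcc2, a passenger complex partner, fell with log2 fold changes of -0.30, -0.32 and -0.25. The fifth was the cyclin Ccnb1 (-0.29), and Usp9x and Xpo1 rose by 0.21 and 0.20 (log2). These last 3 are named after their values were seen. Without WT mouse 1, WT mouse 2 or Trf2-/- mouse 1 the count of higher genes was 1, 0 and 1.

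Of 15 substrates of Aurora B and C, 14 were tested, of which 5 (35.7%) fell and 1 (7.14%) rose. Over all tested genes 20.2% were lower and 11.2% higher, and the list median was -0.07 (log2). Chmp4c, an abscission factor, was under the count filter with 2 to 7 counts in WT and 4 to 5 in Trf2-/- mice. Kif2b, a microtubule-depolymerizing kinesin, had 108, 141 and 83 counts in WT mice 1 to 3 and 13, 23 and 8 in Trf2-/- mice 1 to 3. It was the only gene of the 4 pathway lists to pass the test at 2-fold or more, with a log2 fold change of -2.68 (SE 0.28, edgeR adjusted p = 0.000476). The related kinesin Kif2c, the kinetochore-microtubule factor Ska1 and the kinetochore protein Ndc80 fell with log2 fold changes of -0.28, -0.46 and -0.26. Kif2a (-0.32) also fell and Stmn1, a tubulin-binding protein, rose by 0.19 (log2), and both are named after their values were seen. Without WT mouse 1 or 3 or Trf2-/- mouse 1 or 2, 0 substrates were higher in edgeR, as in the DESeq2 Wald test on all mice, where 1 was higher at an unadjusted p under 0.05.

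Of the 15 spindle checkpoint and anaphase genes, 6 (40%) fell and 0 rose in edgeR, against 20.2% and 11.2% of all tested genes. The list median was -0.10 (log2). None of the 15 had an unadjusted p under 0.05 for an increase in edgeR or in the DESeq2 Wald test. Bub1b, the checkpoint kinase BubR1, averaged 215 ± 6.10 CPM in WT and 165 ± 2.75 CPM in Trf2-/- testis (SD, n = 3 mice each), and its log2 fold change was -0.39 with an adjusted p of 0.00055 in the same edgeR test. The kinetochore motor Cenpe, the anaphase-promoting complex subunit Cdc27 and the securin Pttg1 fell with log2 fold changes of -0.37, -0.29 and -0.42. Apart from Plk1, Haspin and Kif2b, the decreases that passed in the 4 lists lay between -0.46 and -0.14 (log2).

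**Figure D5:**
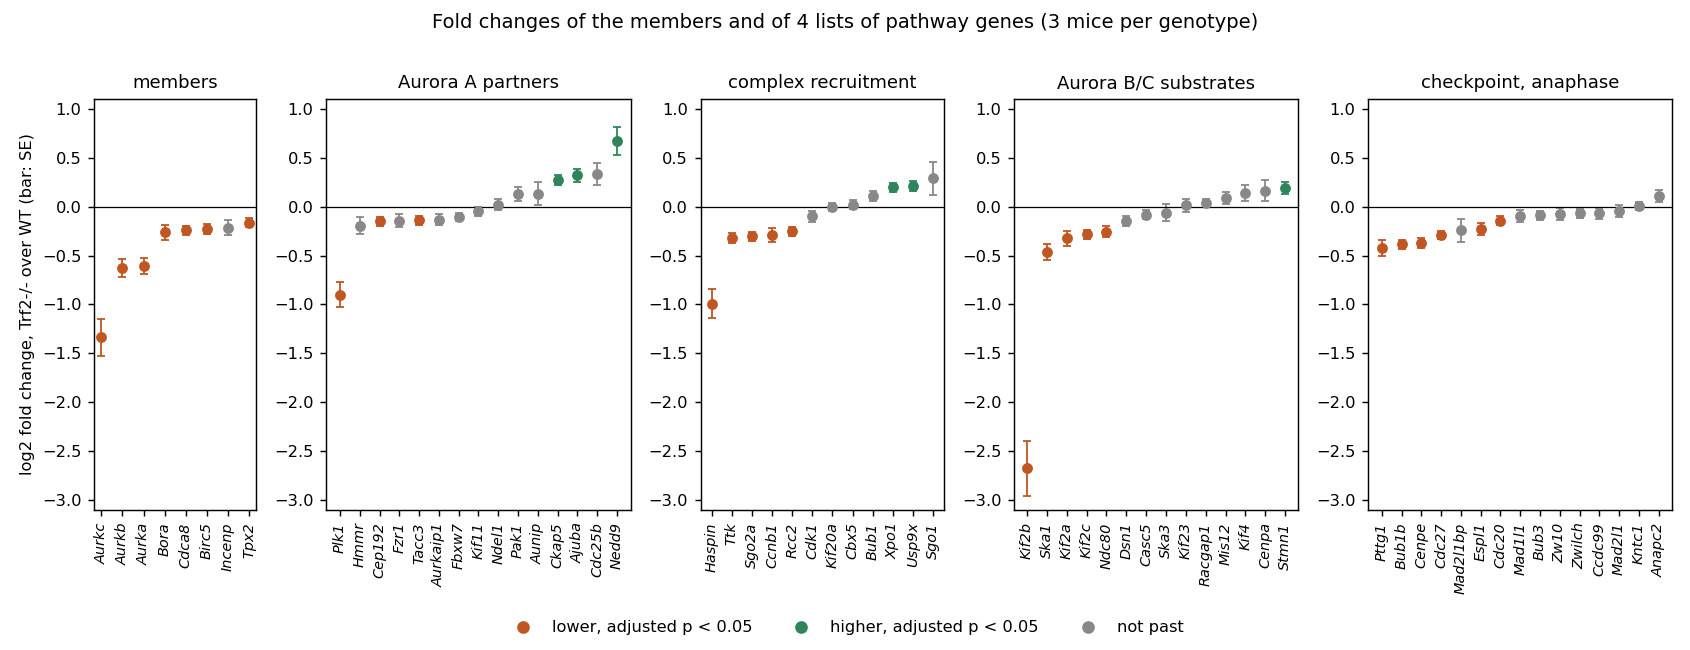
Log2 fold change of Trf2-/- over WT for the 8 genes and the tested genes of 4 pathway lists (3 mice per genotype). Bars are the approximate standard error derived from the F statistic of the edgeR test. Coloured points passed an adjusted p of 0.05 in edgeR, and grey points did not. Members lie between -1.34 (Aurkc) and -0.16 (Tpx2), and Kif2b has the lowest value, at -2.68.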

How the data were processed

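Total RNA from whole testes was depleted of ribosomal RNA, and the stranded libraries were sequenced as single-end 50-base reads. Per the submitters' processing notes, CASAVA 1.8.2, TopHat2 2.0.10, Bowtie2 2.1.0, HTSeq 0.5.4p3 and DESeq2 1.0.19 were used with build mm9. The authors deposited raw counts per gene for each mouse, and these counts were used here without change. Whether counting used the strand, and how reads mapping to several places were treated, is not given in the sources used here. The 12 further columns of normalized values per mouse were not used.

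Genotypes were compared on all genes kept by filterByExpr (16924) with edgeR 4.0.16 in R 4.3.3, using TMM factors, the quasi-likelihood test and Benjamini-Hochberg adjustment over all tested genes. The filter decides which weak genes are tested and the scaling sets where 0 lies. Ratios were tested by two-sided exact permutation over mice. Counts of 15187062 to 29859347 per mouse set the precision, so that Aurkc, with 31 to 210 counts, is the least precise member, and a count of 0 allows up to 3 counts (counting error only).

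The members and lists were chosen with earlier results of these data known. The text names the 8 genes, Tbpl1, the up to 4 genes with the smallest adjusted p in each pathway list, the 3 nearest profiles per kinase, and genes sharing bases with a member. Words of 50 bases were matched to the NCBIM37 genome. Gene positions in the table were the same as in the annotation for 26200 of 26576 shared genes. Alternatives were DESeq2 size factors, library size, the Wald test of DESeq2 1.42.0, no filter beyond 1 count, at least 10 counts in every mouse, a replicate block, each mouse left out and an adjusted p of 0.01. Scripts were tested on simulated counts. No replicates were duplicates, with chi-square per degree of freedom of at least 3.32.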

Additional observations from a re-analysis of the deposited data

How the results depend on the processing

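Aurka, Aurkb, Aurkc, Cdca8 and Tbpl1 kept their direction and stayed past the test in all alternatives run for them, and Incenp, Birc5, Tpx2 and Bora kept their direction. Incenp passed with DESeq2 size factors (-0.22, adjusted p = 0.0453 in edgeR), in the DESeq2 Wald test (-0.22, adjusted p = 0.0479), with no filter beyond 1 count (-0.21, adjusted p = 0.0451 in edgeR) and with at least 10 counts in every mouse (-0.23, adjusted p = 0.0393 in edgeR). With library size alone, Birc5 (-0.13), Tpx2 (-0.067) and Bora (-0.17) did not pass, 4 members were lower, and called genes were 38.7% lower ones (2691 lower, 4267 higher) against 64.4% (3423 lower, 1889 higher) with TMM. In the lists this scaling gave 1 lower and 5 higher Aurora A partners, 3 higher substrates and 1 higher checkpoint gene. With the replicate number as a block, Bora had -0.26 and an adjusted p of 0.0714 in edgeR, 1 Aurora A partner was lower and 0 substrates were higher, and the block changed no other call of a member. The labels do not say whether the numbers pair the mice. Deviations of same-numbered mice from their genotype mean correlated at -0.10, -0.03 and -0.10 over genes, and no mouse correlated best with its own number. With deviations taken within 3 mice per genotype, these values cannot decide whether the mice were paired. The block moved the calls over all genes from 3423 to 3094 lower and from 1889 to 1486 higher.

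An adjusted p of 0.01 left 4 members lower, 1 Aurora A partner lower, and 0 recruitment genes and 0 substrates higher in edgeR. With no filter beyond 1 count, 1 Aurora A partner was lower, and in the DESeq2 Wald test 0 substrates were higher. Leaving out 1 mouse gave -0.27 to -0.16 for Incenp, -0.18 to -0.16 for Tpx2 and -0.32 to -0.20 for Bora. It gave 5 to 8 members lower, 1 to 2 Aurora A partners lower, 4 to 5 checkpoint genes lower, 0 to 2 recruitment genes higher and 0 to 1 substrates higher. The cause of these shifts was not tested. For the ratios, 3 mice against 3 cannot give an exact permutation p under 0.1. Depth limits Aurkc most, with 31 counts in the shallowest library, and the shared words limit its level.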
